A study of Mus musculus with 6 samples.

Results

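The transcription factors Foxa1, Foxa2, Foxp1, Foxp2, Gata6, Sox2, Sox9, Hopx, Klf5 and Cebpa were read in the mouse lung epithelial line MLE-12 with and without NR4A1 overexpression. They are 10 of the 34745 genes in the expression table, taken by gene name as known factors of lung epithelial lineages. No measured value entered the rule, but the list was chosen with earlier results of these data known. RNA was sequenced from 3 libraries of cells transfected with the NR4A1 overexpression plasmid (NR4A1 inserted in pCMV-SPORT6) and from 3 libraries of cells that received the empty pCMV-SPORT6 vector, all by lipid-mediated transfection. Both groups are the same line, so every library shares its immortalisation: MLE-12 was derived from lung tumours of mice that carried the SV40 large T antigen under the surfactant protein C promoter. Sequencing after a transient transfection averages cells that took up the plasmid with cells that did not, and in bulk RNA fewer cells with a transcript and less transcript per cell cannot be told apart. The labels do not say whether the 3 libraries of a group came from separate cultures, so p-values measure only the spread between these libraries, which may be technical.

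Lung epithelium forms from foregut endoderm, and the identity of its cells is held by transcription factors that act in combination. FOXA1 and FOXA2 open endodermal chromatin and, with GATA6, act on surfactant and other epithelial genes, while SOX2 marks the proximal airway and SOX9 the distal tip of the branching lung. FOXP1 and FOXP2 are forkhead repressors of the distal epithelium, HOPX marks alveolar type 1 cells, and KLF5 and CEBPA take part in the choice and maturation of alveolar cell fates. NR4A1 is an orphan nuclear receptor that can bind DNA as a monomer, and the comparison of the groups asks which transcripts differed when it was raised in a lung epithelial cell.

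The libraries held 15019038 to 17574340 counts each. The plasmid carries a mouse open reading frame, so plasmid and endogenous transcripts of Nr4a1 are counted together. Nr4a1 had 50660, 60093 and 68555 counts in the NR4A1 overexpression libraries and 428 to 510 counts in the vector controls, in the direction of the labels. The line expressed the general epithelial keratins Krt19 (227 ± 22.6 FPKM, a read count scaled by gene length and library total; SD, n = 3) and Krt8 (122 ± 4.32) in the vector controls, but only 4 of 8 epithelial markers were at or above 1 FPKM there. The other 4, named after their values were seen, were Krt18 at 0.432 FPKM, the adhesion molecule gene Epcam at 0.275, Esrp1 at 0.208 and the tight junction gene Cldn7 at 0.0651. Krt18, Epcam and Cldn7 had 21, 22 and 11 counts in vector control replicate 1, against 0 to 8 in the other vector controls. Krt18 also had 164 counts in NR4A1 overexpression replicate 2, against 8 and 14 in its replicates 1 and 3. Among alveolar type 2 markers, 6 of 12 were at or above 1 FPKM in the vector controls. Sftpc, the surfactant protein C gene, stood at 88.3 ± 11.6 FPKM and Lpcat1, an enzyme of surfactant lipid synthesis, at 17.5 ± 0.201, while Sftpa1 and Slc34a2 had 0 counts in all 6 libraries. Also below 1 FPKM there, and named after their values were seen, were Napsa at 0.550, Lyz2 at 0.214, Lamp3 at 0.0637 and Sftpd at 0. Among alveolar type 1 markers, 9 of 10 were at or above 1 FPKM in the vector controls, led by Emp2 at 243 ± 2.92 and the water channel gene Aqp5 at 43.4 ± 4.83. The club cell secretory genes Scgb1a1, Scgb3a1, Scgb3a2 and Bpifa1 and the ciliated cell gene Dynlrb2 were at 0, and 0 of 5 basal cell markers passed the filter on low counts. Other genes of the airway lists were counted: the mucin Muc5b at 6.92 ± 1.68 FPKM in the vector controls and 10.6 ± 2.48 with NR4A1 overexpression (edgeR unadjusted p = 0.0298, adjusted p = 0.694), and the ciliated list's Tubb4b at 131 ± 6.04 and Tppp3 at 2.52 ± 0.611 FPKM in the vector controls. NR4A1 overexpression replicate 2 stood apart by transcripts of other cell types: its summed level of 6 smooth muscle markers was 316 CPM (counts scaled to a common library total) against 1.53 to 2.73 in the other libraries, that of 7 endothelial markers 99.1 against 6.89 to 7.66, and that of 7 fibroblast markers 1482 against 922 to 1053, with 6 of 6, 6 of 7 and 5 of 7 markers highest in it, while 7 immune marker entries of 6 genes summed to 4.49 against 1.97 to 3.56. Most of the fibroblast sum was Dcn, with 14138 to 17269 counts per library, and collagen genes and Pdgfra, looked at after their values were seen, were also raised in vector control replicate 1. There Col1a2 had 284 counts, Col3a1 125 and Pdgfra 92, against 10 to 45, 10 to 32 and 12 to 18 counts in the 4 libraries other than these 2, and 4504, 991 and 611 counts in NR4A1 overexpression replicate 2.

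Of the 10 factors, 8 were at or above 1 FPKM in the vector controls and 1, Sox2, was not counted in any library. The endodermal factors Gata6, Foxa2 and Foxa1 and the alveolar type 1 factor Hopx stood at 10.2 to 31.9 FPKM, Foxp1 and Cebpa at 6.71 and 6.47 FPKM, and Klf5, Foxp2 and Sox9 at or below 1.96 FPKM. Between NR4A1 overexpression and vector control, 0 of the 9 factors that passed the filter on low counts changed at an adjusted p under 0.05 and at least 2-fold (edgeR quasi-likelihood test with Benjamini-Hochberg adjustment over 12941 genes), where 0.17% of all genes tested were called. DESeq2 and limma-voom also called 0 of 9. Without the fold threshold the edgeR count was 0 of 9 as well, beside 0.24% of all genes. At an unadjusted p under 0.05 the count was 1 of 9, Sox9, beside 6.46% of all genes, and 1 of 9, again Sox9, had no overlap between the libraries of the 2 groups, beside 12.9% of all genes. The median log2 fold change of the 9 factors was 0.07, with 5 above and 4 below 0, beside a median of 0.01 over all genes tested.

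**Figure D1:**
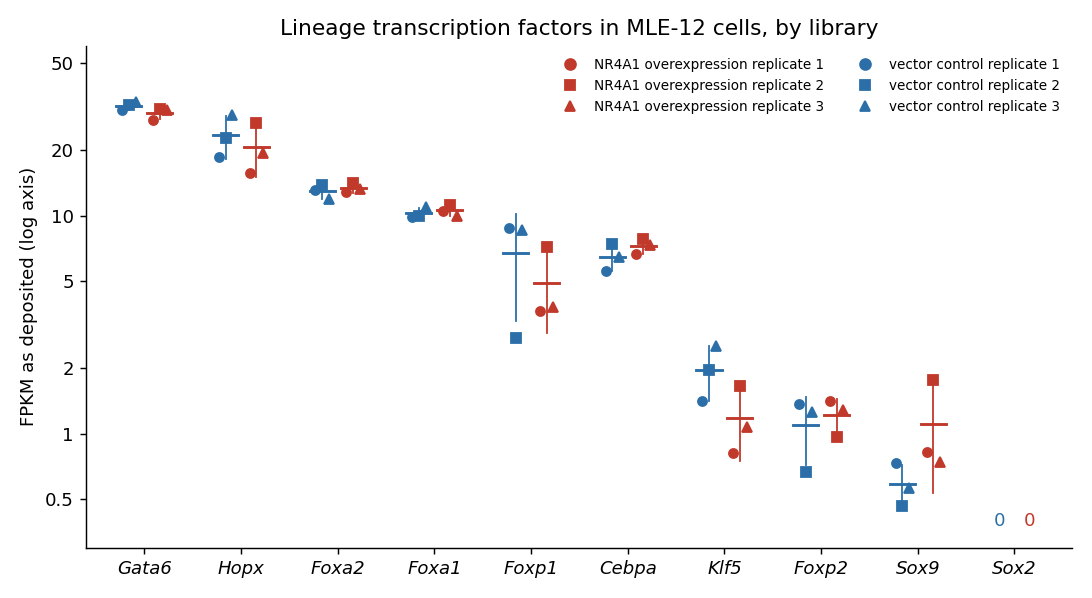
FPKM as deposited (log axis) of the 10 factors in each library, with a horizontal line at the mean and a vertical line of 1 SD either way (n = 3). Gata6, Foxa2 and Foxa1 lie close together across the 6 libraries, Foxp1 is split between 2.75 and 8.74 FPKM within the vector controls, and Sox2, drawn as 0, was not counted.

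The pioneer factors Foxa1 and Foxa2 held nearly the same level in all 6 libraries. Foxa1 (ENSMUSG00000035451, GRCm38 chromosome 12, 57540631 to 57546121, minus strand) had 10.5, 11.2 and 9.95 FPKM in NR4A1 overexpression replicates 1 to 3 and 9.82, 9.97 and 10.9 FPKM in vector control replicates 1 to 3, from 504 to 611 counts per library. The groups overlapped, and the highest library was 1.15-fold above the lowest in CPM. The log2 fold change was 0.07 (SE 0.0861, 95% interval -0.14 to 0.27; edgeR adjusted p = 0.948). Foxa2 (ENSMUSG00000037025, chromosome 2, 148042877 to 148046969, minus strand) had 12.8, 14.1 and 13.3 FPKM against 13.1, 13.8 and 11.9 FPKM. Here too the groups overlapped, and the log2 fold change was 0.07 (SE 0.0916, 95% interval -0.14 to 0.29; edgeR adjusted p = 0.946). The intervals allow a Foxa1 level between 0.910 and 1.20 times that of the vector controls and a Foxa2 level between 0.905 and 1.22 times. The ratio of Foxa1 to Foxa2 in FPKM was 0.824, 0.792 and 0.748 with NR4A1 overexpression and 0.748, 0.720 and 0.920 in the vector controls. The balance of these paralogues differed by -0.01 on the log2 scale (exact two-sided permutation test, p = 0.9, where 3 against 3 libraries cannot go below 0.1), with the highest and the lowest ratio both among the vector controls.

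The promoters of these factors were read for the motif that NR4A1 binds as a monomer, as a description of the sequence before their start sites. The letters AAAGGTCA, and TGACCTTT for the other strand, were searched in the 250 bases before each RefSeq start site on GRCm38.p6, and no other motif was searched. RefSeq windows were at hand for 6 of the 10 factors (Foxa1, Foxa2, Foxp1, Sox2, Hopx and Cebpa; 11 windows in all), and 0 of the 11 held the motif, beside 1.34% of 32851 windows of all genes. An exact search passes over sites that differ in any letter, so 0 of 11 does not mean that NR4A1 sites are absent. With 1 mismatch allowed, 2 of the 11 windows, 1 of Foxa2 and 1 of Sox2, had a match, beside 20.9% of all windows. The closest stretches are shown for the Foxa pair, which were expressed, and for Sox2, which was not counted, each printed on the strand that RefSeq gives for its gene, and with the 8 letters nearest to the motif in capitals. In all 3 they match the motif's other strand.
Foxa2: ggtaccattgcTGACTTTTttttttaagag
Foxa1: ctttctcttttTTTCCTTTtccaaaggggg
Sox2: gcgccgTGACCTGTtgctgaaaacg
The Foxa2 stretch lies at chr2:148045972-148046001 on the minus strand, its capitals 42 bases before a start site and with 7 of 8 letters of the motif. This position is inside the Foxa2 locus of the expression table, so the start is an internal one. The closest stretch beyond the outer end of that locus, at chr2:148047078-148047107, has 6 of 8 letters. The Foxa1 stretch, at chr12:57546320-57546349 on the minus strand, has 6 of 8 letters, and the Sox2 stretch, at chr3:34649745-34649769 on the plus strand, has 7 of 8, upstream of a RefSeq start that lies before the start of Sox2 in the expression table. The bases that follow the start were found in a GENCODE M21 transcript of the same gene for every window except that of Sox2, whose reading direction rests on the RefSeq entry. Such matches are a description of letters, and binding was not measured in these data.

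Gata6, a zinc-finger factor of the distal lung endoderm, was the most abundant of the 10 on the deposited FPKM scale. Gata6 (ENSMUSG00000005836, chromosome 18, 11052510 to 11085635, plus strand) had 27.5, 30.7 and 30.7 FPKM with NR4A1 overexpression and 30.4, 32.0 and 33.2 FPKM in the vector controls. Replicate 1 of NR4A1 overexpression was the lowest library, and the groups overlapped. The mean was 29.6 ± 1.84 against 31.9 ± 1.40 FPKM (SD, n = 3 each), which gave a log2 fold change of -0.08 (SE 0.0781, 95% interval -0.27 to 0.10; edgeR adjusted p = 0.921). Its level was at or above that of 95.7% of all genes of the expression table in the vector controls, where 48.6% of these genes were at 0 FPKM. The locus overlaps 1010001N08Rik on the opposite strand, which had 19 to 39 counts against 1319 to 1862 for Gata6. Whether the counting used strand is not given in the sources used here.

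The SRY-box factors that split the airway tree, Sox2 proximally and Sox9 distally, were both low. Sox2 (ENSMUSG00000074637, chromosome 3, 34650405 to 34652461, plus strand) had 0 counts in each of the 6 libraries, which allows up to 3 counts, or 0.171 to 0.1997 CPM, per library. It was therefore not detected at this depth, and no fold change was computed. Sox9 (ENSMUSG00000000567, chromosome 11, 112782224 to 112787760, plus strand) had 51, 124 and 53 counts with NR4A1 overexpression and 52, 32 and 41 counts in the vector controls, or 0.821, 1.77 and 0.739 against 0.730, 0.467 and 0.564 FPKM. The groups did not overlap, by a margin of 0.739 to 0.730 FPKM between the nearest libraries, and NR4A1 overexpression replicate 2 was more than 2-fold above every other library. The mean was 1.11 ± 0.574 against 0.587 ± 0.133 FPKM, a log2 fold change of 0.94 (SE 0.386, 95% interval 0.03 to 1.85; edgeR unadjusted p = 0.0446, adjusted p = 0.753), which did not pass the threshold. Leaving out NR4A1 overexpression replicate 2 brought Sox9 to 0.43 on the log2 scale (edgeR unadjusted p = 0.161, adjusted p = 0.662). This is its highest library, so the value had to fall. Without NR4A1 overexpression replicate 1 or 3, or vector control replicate 1, it was 1.11, 1.16 and 1.13 (edgeR unadjusted p = 0.0430, 0.0264 and 0.0455). Those removals had to raise it. Without vector control replicate 2 or 3 it was 0.80 and 0.91 (edgeR unadjusted p = 0.137 and 0.112). None of these values passed the adjusted threshold. NR4A1 overexpression replicate 2 is the library with the raised smooth muscle, endothelial and fibroblast marker sums, and the part of those transcripts in the Sox9 value was not tested.

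The forkhead repressors Foxp1 and Foxp2 varied more between libraries of the same group than between the groups. Foxp1 (ENSMUSG00000030067, chromosome 6, 98925338 to 99522721, minus strand) had 3.67, 7.18 and 3.82 FPKM with NR4A1 overexpression and 8.74, 2.75 and 8.63 FPKM in the vector controls. Replicate 2 was the high library in the first group and the low library in the second, and the range of the vector controls reached past that of the NR4A1 overexpression libraries on both sides. Within the vector controls the highest library was 3.20-fold above the lowest in CPM, with 3687 and 1110 counts behind them, so counting error is small beside the difference. The within-group SD of Foxp1 was 0.781 in log2 CPM, and 99.5% of the 1491 genes whose mean CPM lay within 30% of its own had an SD at or below that. The mean was 4.89 ± 1.98 against 6.71 ± 3.42 FPKM, a log2 fold change of -0.44 (SE 0.456, 95% interval -1.51 to 0.64; edgeR adjusted p = 0.922). This interval is wide enough to hold a 2-fold decrease. Without vector control replicate 2 the log2 fold change was -0.81 (edgeR unadjusted p = 0.0377, adjusted p = 0.982), and without NR4A1 overexpression replicate 2 it was -0.82 (edgeR unadjusted p = 0.107). These fits leave out the lowest vector control and the highest NR4A1 overexpression library, so each had to enlarge the decrease and is no support for it. With any other single library left out the log2 fold change lay between -0.29 and -0.20 (edgeR unadjusted p from 0.606 to 0.710).

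Foxp2 (ENSMUSG00000029563, chromosome 6, 14901349 to 15441977, plus strand) had 1.41, 0.968 and 1.28 FPKM with NR4A1 overexpression and 1.37, 0.664 and 1.25 FPKM in the vector controls. Replicate 2 was the lowest library of both groups, and the log2 fold change was 0.18 (SE 0.274, 95% interval -0.47 to 0.82; edgeR adjusted p = 0.957). Without vector control replicate 2 its sign turned, to -0.08. Vector control replicate 2 was low for both paralogues, at -0.95 for Foxp1 and -0.94 for Foxp2 in log2 CPM relative to each gene's median over the 6 libraries. In NR4A1 overexpression replicate 2 they parted, with Foxp1 at 0.46 and Foxp2 at -0.37. The ratio of Foxp1 to Foxp2 was 2.60, 7.41 and 2.98 with NR4A1 overexpression and 6.38, 4.15 and 6.90 in the vector controls, a difference of -0.56 on the log2 scale (exact two-sided permutation test, p = 0.4). Both genes span long loci, 597 kb for Foxp1 and 541 kb for Foxp2. The 528 tested genes with a locus of at least 200 kb had a median of -0.17 in vector control replicate 2 on the same scale, and medians of -0.05 to 0.10 in the other 5 libraries. Locus length moves with this library in the direction of both genes, and its part in the Foxp values was not tested. Foxp1 also overlaps Gm20705 and Gm20696 on its own strand, which had 0 to 3 and 1 to 8 counts.

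**Figure D2:**
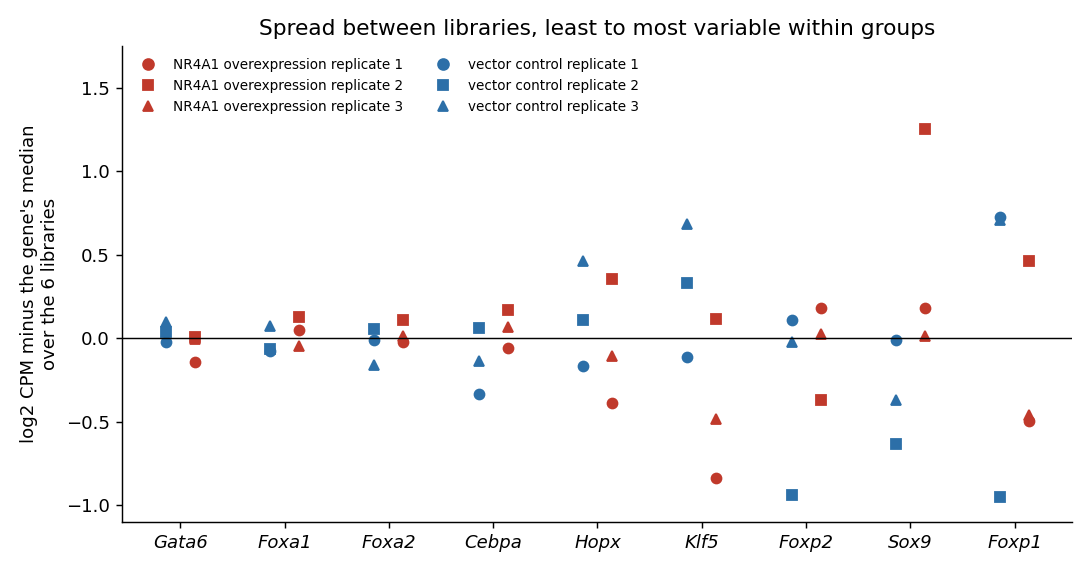
Level of each counted factor in each library as log2 CPM minus the gene's median over the 6 libraries, ordered from the smallest to the largest within-group SD (0.0734 for Gata6, 0.781 for Foxp1). Vector control replicate 2 is lowest for Foxp2, Sox9 and Foxp1, and NR4A1 overexpression replicate 2 is highest for Sox9.

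The plot of library deviations separates the factors by how steady they were. Gata6, Foxa1 and Foxa2 had within-group SDs of 0.0734, 0.0864 and 0.0920 in log2 CPM, and 19.4%, 17.6% and 27.4% of genes of similar CPM had an SD at or below theirs. Cebpa lay in the middle at 0.162 (61.4%). Klf5 at 0.442 (72.2%) and Sox9 at 0.525 (83.7%) were more variable than most genes of their low level, and Hopx at 0.348 (93.7%), Foxp2 at 0.451 (95.8%) and Foxp1 (99.5%) stood in the upper tail.

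Hopx, an atypical homeodomain protein that does not itself bind DNA and marks alveolar type 1 cells, was the second most abundant factor on the deposited scale. Hopx (ENSMUSG00000059325, chromosome 5, 77086988 to 77115121, minus strand) had 15.7, 26.5 and 19.4 FPKM with NR4A1 overexpression and 18.6, 22.7 and 28.9 FPKM in the vector controls. The groups overlapped, and the log2 fold change was -0.17 (SE 0.224, 95% interval -0.70 to 0.36; edgeR adjusted p = 0.951). Without vector control replicate 3, its highest library, it was 0.01. Among the 10 alveolar type 1 markers, of which Hopx is 1, 0 were called, 9 had a negative and 1 a positive log2 fold change, and their median was -0.09 beside 0.01 for all genes tested. Of all 12941 genes tested, 6228 had a negative log2 fold change. Among the 7 alveolar type 2 markers tested, 0 were called, 4 had a positive and 3 a negative log2 fold change, and the median was 0.08.

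Klf5, a zinc-finger factor of alveolar fate, was low. Klf5 (ENSMUSG00000005148, chromosome 14, 99298691 to 99313405, plus strand) had 21, 48 and 32 counts with NR4A1 overexpression and 42, 56 and 76 counts in the vector controls, or 0.812, 1.65 and 1.07 against 1.42, 1.96 and 2.51 FPKM. The groups overlapped through NR4A1 overexpression replicate 2 and vector control replicate 1. The mean was 1.18 ± 0.427 against 1.96 ± 0.548 FPKM, a log2 fold change of -0.71 (SE 0.338, 95% interval -1.51 to 0.08; edgeR unadjusted p = 0.0720, adjusted p = 0.802). Without NR4A1 overexpression replicate 2 it was -1.03 (edgeR unadjusted p = 0.0164, adjusted p = 0.521), and without that library and vector control replicate 1 together it was -1.22 (edgeR unadjusted p = 0.00425, adjusted p = 0.277). The joint removal was chosen after seeing the data, for the fibroblast markers of those libraries. They are also the libraries through which the Klf5 groups overlap, the highest with NR4A1 overexpression and the lowest vector control. Taking out 1 or both of them had to widen the difference, so such values are no support for it. Without vector control replicate 1 alone the log2 fold change was -0.90 (edgeR unadjusted p = 0.0437). With any other single library left out it lay between -0.72 and -0.50 (edgeR unadjusted p from 0.140 to 0.250). None of these values passed the adjusted threshold.

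Cebpa, a basic leucine zipper factor of alveolar maturation and lipid metabolism, differed little. Cebpa (ENSMUSG00000034957, chromosome 7, 35119293 to 35121928, plus strand) had 6.65, 7.83 and 7.35 FPKM with NR4A1 overexpression and 5.58, 7.41 and 6.43 FPKM in the vector controls. Replicate 1 was the lowest library of each group and replicate 2 the highest, and the groups overlapped. The log2 fold change was 0.19 (SE 0.120, 95% interval -0.09 to 0.47; edgeR unadjusted p = 0.154, adjusted p = 0.853). With the replicate number as a block in the fit it was 0.20 (edgeR unadjusted p = 0.0372, adjusted p = 0.513). Without vector control replicate 2 it was 0.29 (edgeR unadjusted p = 0.0367, adjusted p = 0.977). That library is the highest vector control, so its removal had to raise the value. With any other single library left out it lay between 0.10 and 0.25 (edgeR unadjusted p from 0.110 to 0.439).

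**Figure D3:**
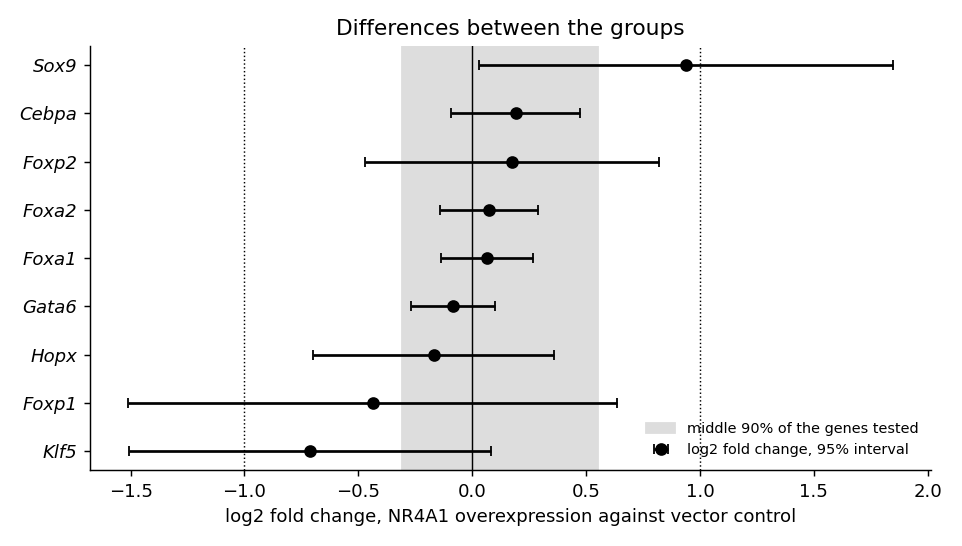
Log2 fold change of NR4A1 overexpression against vector control for the 9 factors tested, with 95% intervals from the edgeR fit; dotted lines mark 2-fold either way and the grey band the middle 90% of the 12941 genes tested (-0.31 to 0.55). The intervals of Foxa1, Foxa2, Gata6, Cebpa, Hopx and Foxp2 lie inside 2-fold, and those of Klf5, Foxp1 and Sox9 do not.

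How large a difference the data leave possible varied by factor. For 6 of the 9 the whole 95% interval lay inside a 2-fold change in either direction (Foxa1, Foxa2, Gata6, Cebpa, Hopx and Foxp2), beside 85.5% of all genes tested. The same 6 had an absolute log2 fold change under 0.2, beside 74.1% of all genes. The remaining 3, Klf5, Foxp1 and Sox9, had intervals that reach past 2-fold in 1 direction, so that for them a change of that size was neither called nor bounded. The median absolute log2 fold change was 0.18 for the 9 factors and 0.10 for all genes tested.

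The order of the levels within the vector controls depended on the gene length used to scale them. On the deposited FPKM scale the order was Gata6 (31.9), Hopx (23.4), Foxa2 (12.9), Foxa1 (10.2), Foxp1 (6.71), Cebpa (6.47), Klf5 (1.96), Foxp2 (1.09), Sox9 (0.587) and Sox2 (0). The ranges of the 3 libraries overlapped between Foxp1 and Cebpa and between Foxp2 and Sox9, and between no other neighbours. The length that the deposited counts and FPKM imply was 24319 bases for Foxp1 and 24889 for Foxp2, against 7177 and 6760 bases in the longest GENCODE M21 transcript of each, and 4787 bases for Cebpa, whose whole locus in the table spans 2636 bases. Such a length above the span of the locus was found for 942 of 15665 genes (6.01%). For Sox9 both lengths were 4135 bases, and for Foxa1 they were 3188 and 3191.

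With the longest transcript as the length, a scale chosen after seeing the deposited lengths, the levels in the vector controls were 33.0 FPKM for Hopx, 26.9 for Gata6, 23.2 for Foxa2, 22.7 for Foxp1, 11.8 for Cebpa, 10.2 for Foxa1, 4.03 for Foxp2, 1.01 for Klf5 and 0.587 for Sox9. Hopx and Gata6 then overlapped and exchanged places, Foxp1 moved from below Foxa1 to a range that overlapped Foxa2, and Foxp2 passed Klf5. Gata6, Hopx, Foxa2 and Foxa1 stayed at or above 10 FPKM and Sox9 and Sox2 stayed last on both scales. Differences between the groups are within a gene and do not depend on which of these lengths scales it.

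**Figure D4:**
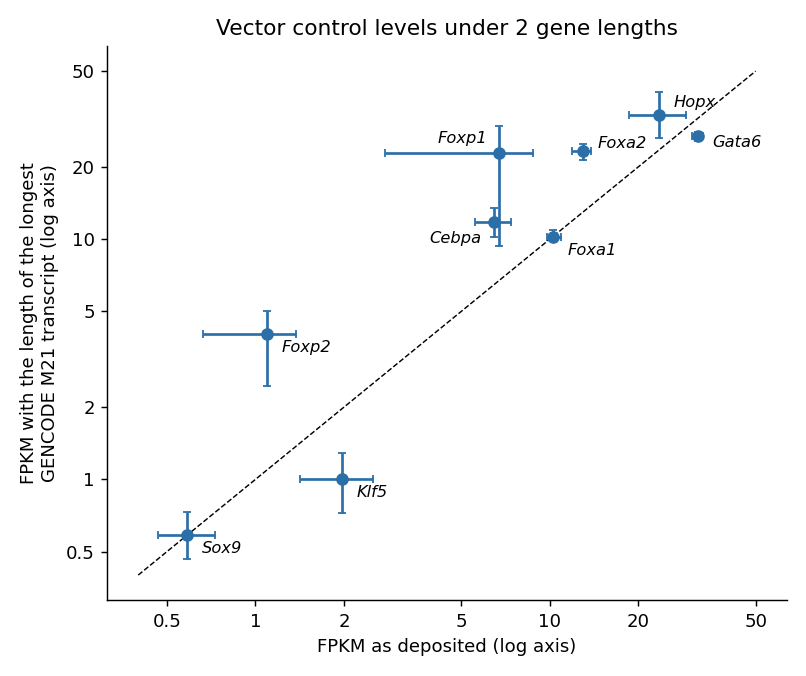
Mean level of each counted factor in the 3 vector controls as deposited (x axis) and with the length of the longest GENCODE M21 transcript (y axis), both in FPKM on log axes; bars run from the lowest to the highest library and the dashed line marks equal values. Foxp1 and Foxp2 lie farthest above the line, Klf5 and Gata6 lie below it, and Sox9 and Foxa1 lie on it.

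Among 36 other transcription factors of lung epithelial development and identity, 24 passed the filter and 0 were called, with 0 also at an adjusted p under 0.05 without a fold threshold. At an unadjusted p under 0.05 there were 5 (Sox4, Etv4 and Etv5 above 0, Nkx2-1 and Rfx2 below 0), beside 6.46% of all genes, and the groups did not overlap for 6 of 24, beside 12.9%. The median log2 fold change of the 24 was 0.12. The most abundant were Klf4, an epithelial zinc-finger factor, at 44.3 ± 1.89 FPKM in the vector controls, Sox4 at 40.1 ± 2.94, Nkx2-1, the master factor of lung identity, at 25.7 ± 1.11, and Cebpb at 19.7 ± 5.06.

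Nkx2-1 had 19.5, 18.4 and 23.1 FPKM with NR4A1 overexpression against 25.0, 27.0 and 25.2 FPKM in the vector controls, with no overlap and a log2 fold change of -0.32 (SE 0.103, 95% interval -0.56 to -0.08; edgeR unadjusted p = 0.0171, adjusted p = 0.620). Sox4, an SRY-box factor of progenitor cells, had 59.7, 47.4 and 52.8 against 40.7, 36.8 and 42.6 FPKM, again with no overlap (log2 fold change 0.43, SE 0.107; edgeR unadjusted p = 0.00471, adjusted p = 0.353). Etv5, an ETS factor downstream of fibroblast growth factor signalling that maintains alveolar type 2 cells, had 5.57, 5.61 and 5.64 against 4.33, 4.57 and 4.94 FPKM (log2 fold change 0.30; edgeR unadjusted p = 0.00600, adjusted p = 0.402). Klf4 (log2 fold change -0.16; edgeR adjusted p = 0.776) and Cebpb (-0.42; edgeR adjusted p = 0.888) missed the unadjusted level too. The groups were separate for Nkx2-1, Sox4, Etv5 and Klf4, and none of the 4 had an adjusted call.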

How the data were processed

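RNA from 3 NR4A1 overexpression and 3 vector control libraries of MLE-12 cells was compared, and groups came from the treatment labels. The authors deposited raw read counts per gene and FPKM values, scaled by the total count and a gene length, for each library. The submitters' processing notes name HISAT2 2.0.4 and GRCm38.p4, and the counting program and annotation are not given in the sources used here. The kit was stranded. Of 34267 identifiers shared with GENCODE M21, 80.8% had the same coordinates, so positions are given on GRCm38.

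Groups were compared in R 4.3.3 by the quasi-likelihood test of edgeR 4.0.16 on the counts, after TMM scaling and filterByExpr, and p-values of the 12941 genes kept were adjusted by Benjamini-Hochberg. A call needed a 2-fold change and an adjusted p below 0.05. The script was tested on simulated data. A floor of 3 counts per library covers counting error only. The intervals of the log2 fold changes come from the edgeR fit and include the spread between libraries. The members and lists were chosen with earlier results of these data known. All 10 members were named, of the other factors the 4 most abundant in the vector controls and the 2 with the smallest p, and of a marker list at most the 2 most abundant and those at 0. Alternatives were DESeq2 1.42.0, limma 3.58.1 (voom, and log2(FPKM + 1) or log2(FPKM + 0.1)), other scalings and filters, a replicate block, and each library left out. The joint removal of 2 libraries and the longest-transcript length were chosen after seeing the data. Promoter sequences are RefSeq's (GRCm38.p6).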

Additional observations from a re-analysis of the deposited data

How the results depend on the processing

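The count of 0 of 9 factors held under every alternative to the test, scaling, filter and libraries, and became 1 (Sox9) and, for the other lung factors, 5 at an unadjusted p under 0.05 with no fold threshold. Over all genes the count of 22 became 8 with a mean of at least 10 counts, 65 with DESeq2, 7 and 10 with limma on log2(FPKM + 1) and log2(FPKM + 0.1), 161 at an unadjusted p with at least 2-fold, 836 at an unadjusted p alone, 3 to 28 with 1 library left out (3 without NR4A1 overexpression replicate 3, 4 without its replicate 1, and 6 without vector control replicate 1, 2 or 3) and 47 without NR4A1 overexpression replicate 2 and vector control replicate 1 together. With the replicate number as a block it was 5. Correlations between same-numbered libraries were -0.01, -0.05 and 0.25. Differently numbered libraries were not set beside them, so they do not settle whether the libraries are paired. Under the block the edgeR unadjusted p was 0.0372 for Cebpa, 0.0453 for Klf5 and 0.0880 for Sox9. The smallest adjusted p of a member under the block (edgeR) was 0.513, for Cebpa. The median log2 fold change of the members (0.0662) lay between -0.0842 (without vector control replicate 2) and 0.0738 with 1 library left out, and was -0.00517 without both libraries. Of 144 values of single members, 3 turned sign: Foxa1 to -0.00517 without both libraries, Foxp2 to -0.0846 without vector control replicate 2 and Hopx to 0.0118 without vector control replicate 3. Over its alternatives Foxa1 reached 0.115 (without vector control replicate 3) and Hopx -0.536 (without both libraries). The log2 difference in the Foxa1 to Foxa2 ratio ranged from -0.0756 to 0.101 with 1 library left out, turning to 0.0295 without NR4A1 overexpression replicate 3 and 0.101 without vector control replicate 3. That of Foxp1 to Foxp2 ranged from -1.03 to -0.27. The cause of these shifts was not tested. Depth limits Sox2, Sox9 and Klf5, which had at most 124 counts per library.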

Other observations

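Gata4, the cardiac and endodermal paralogue of Gata6, was also counted, a gene singled out after its values were seen. It had 5.17, 4.46 and 5.07 FPKM with NR4A1 overexpression and 4.23, 4.23 and 2.32 FPKM in the vector controls, with no overlap between the groups and vector control replicate 3 well below the rest (log2 fold change 0.47, 95% interval -0.06 to 0.99; edgeR unadjusted p = 0.0725, adjusted p = 0.803). Id2, a distal tip regulator that was also picked out after its values were seen, shared with Sox9 its high level in NR4A1 overexpression replicate 2, with 139 counts there and 16 to 23 counts in the other 5 libraries. The airway and barrier factors Elf3, Ehf, Grhl2, Spdef and Trp63, likewise named after their values were seen, had 0 to 12 counts per library and did not pass the filter, and Elf5, a distal tip factor, had 0 counts in all 6.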
